A study of Homo sapiens with 7 samples.

Results

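The transcripts described here are 10 snoRNA host transcripts, GAS5, SNHG1, SNHG5, SNHG6, SNHG7, SNHG8, SNHG12, SNHG15, EPB41L4A-AS1 and TAF1D, of 18748 genes with a count in any library. They were chosen by name, from earlier fits to these same libraries, because their levels rose or bent upward during illumination. Their rise is therefore the reason they were selected, and their values are given as a description without a test. All 10 passed the count filter and are among the 13566 genes tested.

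The libraries came from H4, an established human neuroglioma line, carrying opto-PKR, a fusion of the light-clustering protein Cry2Olig with the eIF2 kinase PKR (gene EIF2AK2). Clustered PKR phosphorylates the translation factor eIF2, which lowers bulk protein synthesis and starts the integrated stress response, whose course over time the study set out to follow. Blue light was on continuously, and cells were lysed directly after 0, 60, 120, 240, 480, 600 or 720 min of it. An adaptation of CEL-Seq2 was used, a method that tags transcripts near their 3′ ends with unique molecular identifiers (UMIs). All 7 groups share the cell line and the fusion, and each is 1 library. Unlit cultures at later times and lit cells without the fusion were not analysed here, so light and time in the plate cannot be told apart. With 1 library per time there is no replicate, and a fitted p-value reflects only the scatter around a fitted shape, which may be technical.

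The 6 complete tables held 7048253 to 8911818 transcripts, and the 480 min table, which ends partway through the alphabet, held 5266123. Only GAS5 and EPB41L4A-AS1 have a value at 480 min. The other 8 are missing there, not at 0. Levels are given as CPM, counts per 1000000 transcripts of the effective library size. The lineage markers VIM and CD44 were high in each library that lists them (VIM 682 to 886 CPM, CD44 495 to 703 CPM), SOX2 stood at 15.9 to 54.5 CPM, NES at 1.65 CPM or lower, and the astroglial markers GFAP and S100B had no transcript in any complete library. Haematopoietic, endothelial, epithelial and hepatocyte markers summed to at most 0.824 CPM per list in any complete library. EIF2AK2, which the counts do not separate from the introduced fusion, stood at 188 CPM before illumination, 66.0 CPM after 240 min and 130 CPM by 720 min. In bulk RNA a level does not separate fewer expressing cells from less RNA per cell.

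Small nucleolar RNAs (snoRNAs) guide the chemical modification and processing of ribosomal RNA, and most human snoRNAs are released from introns of host transcripts. Many spliced noncoding hosts carry only short reading frames, and several, GAS5 among them, are degraded by nonsense-mediated decay (NMD), which acts during translation. Many hosts are also transcribed from 5′ TOP promoters, where the RNA begins with a C followed by a run of pyrimidines. TAF1D is the only protein-coding host of the 10 and encodes a subunit of SL1, the promoter selectivity factor of RNA polymerase I.

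RefSeq (GRCh38.p14) gave a start-site window for 8 of the 10 genes, all except SNHG6 and SNHG15. Shown are 50 bases before and 25 bases after the annotated start for the transcript with the earliest rise (SNHG12), that with the latest (SNHG5), the protein-coding host (TAF1D), the host with the highest 720 min ratio to 0 min (GAS5) and one that fell back far after 240 min (EPB41L4A-AS1). Capitals mark TATAA in the 40 to 21 bases before the start and an unbroken run of C or T that begins with a C at the start.
SNHG12 (chr1:28581849-28581923, minus strand): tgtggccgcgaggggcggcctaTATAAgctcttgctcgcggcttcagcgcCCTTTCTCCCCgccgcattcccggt
SNHG5 (chr6:85678709-85678783, minus strand): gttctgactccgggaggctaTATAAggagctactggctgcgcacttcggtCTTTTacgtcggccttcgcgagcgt
TAF1D (chr11:93741471-93741545, minus strand): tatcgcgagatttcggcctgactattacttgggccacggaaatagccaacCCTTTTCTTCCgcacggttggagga
GAS5 (chr1:173869021-173869095, minus strand): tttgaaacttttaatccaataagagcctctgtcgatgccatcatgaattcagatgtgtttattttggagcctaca
EPB41L4A-AS1 (chr5:112160476-112160550, plus strand): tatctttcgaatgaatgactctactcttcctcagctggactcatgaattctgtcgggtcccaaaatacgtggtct

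The first annotated base was a C in 6 of the 8 hosts and in 14.7% of all 35116 windows. A C followed by at least 4 more pyrimidines began SNHG5, SNHG12 and TAF1D, 3 of 8, and 4.07% of all windows. TATAA stood in the 40 to 21 bases before the start of SNHG5, SNHG7, SNHG8 and SNHG12, 4 of 8, against 3.77% of windows. SNHG12 and SNHG5, with the highest and the lowest 60 min ratio to 0 min, thus share both features. GAS5 and EPB41L4A-AS1 have neither at the start annotated there. Among GENCODE release 29 transcripts, which list many starts per gene, 21 of 144 from the 10 genes (14.6%) and 4979 of 206694 overall (2.41%) began with such a run. For GAS5 it was 6 of 29 transcripts. Over the full 300-base windows and both strands, TGATGNAA, the core of the ATF4 and CHOP composite element, matched 0 of 8 hosts (3.62% of windows), TGACGTCA matched 0 (1.85%) and the E-box CACGTG matched SNHG7 only (7.26%). The motifs were chosen after the windows had been seen, and a match of letters is not a binding site.

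Within 60 min SNHG12 already stood far above its 0 min level. SNHG12, a host of SNORA44, SNORA61 and SNORD99, stood at 56.5, 224, 329, 354, 209 and 170 CPM after 0, 60, 120, 240, 600 and 720 min. Its fold against 0 min was 3.96 at 60 min (3.57 to 4.39) and 6.26 at 240 min (5.68 to 6.90). The range is the exact binomial 95% interval, for counting error only. It takes transcript counts, which are UMI counts corrected for collisions, as if observed directly. Counting error is therefore understated, most for the most abundant transcripts. By 720 min the SNHG12 level was 0.481 of that at 240 min (0.451 to 0.513), still 3.01-fold (2.71 to 3.35) above 0 min. No other of the 10 had as high a ratio at 60, 120 or 240 min.

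EPB41L4A-AS1, an antisense-named noncoding RNA that hosts SNORA13, has a complete series: 67.2, 147, 252, 327, 280, 219 and 168 CPM at 0, 60, 120, 240, 480, 600 and 720 min. It was 4.86-fold (4.45 to 5.33) above 0 min at 240 min. Each later library was lower than the one before, and at 720 min it was at 0.513 (0.480 to 0.548) of its 240 min level and 2.49-fold (2.26 to 2.76) above 0 min. The 480 min library was already lower, at 0.856 (0.812 to 0.901) of the 240 min level.

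SNHG15, host of SNORA9, stood at 354, 739, 821, 1201, 782 and 776 CPM in the 6 complete libraries in order of time. The ratio to 0 min was 2.09 (2.00 to 2.18) at 60 min and 3.39 (3.26 to 3.53) at 240 min. From 240 to 720 min it came down to 0.646 (0.626 to 0.667), with 600 and 720 min at nearly equal CPM. SNHG1, host of a row of box C/D snoRNAs, was highest at 120 and 240 min: 514, 871, 1198, 1159, 719 and 798 CPM. Intervals that allow for UMI collisions were 1150 to 1247 CPM at 120 min and 1111 to 1208 CPM at 240 min. They overlap, so which library was higher is not resolved. The 120 min level of SNHG1 was 2.33-fold (2.25 to 2.41) and its 720 min level 1.55-fold (1.49 to 1.61) that at 0 min. Among the 10, SNHG1 had the lowest ratio at 720 min.

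SNHG8, host of SNORA24, stood at 163, 250, 390, 530, 413 and 380 CPM. It was 3.26-fold (3.07 to 3.47) above 0 min at 240 min and 2.34-fold (2.19 to 2.50) at 720 min. TAF1D stood at 76.1, 125, 148, 190, 166 and 155 CPM, with folds of 2.50 (2.28 to 2.74) at 240 min and 2.03 (1.84 to 2.24) at 720 min. Among the complete libraries both were highest at 240 min. The 720 min level was 0.717 (0.684 to 0.751) of the 240 min level for SNHG8 and 0.813 (0.754 to 0.876) for TAF1D.

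SNHG7, host of SNORA17, stayed near its 240 min level afterwards: 169, 239, 275, 327, 306 and 324 CPM. Its 720 min level was 0.991 (0.939 to 1.05) of the 240 min level, a difference within counting error. The 600 min level was 0.937 (0.889 to 0.988) of it, and in reads the ratio of 720 to 240 min was 0.949. SNHG7 is the only one of the 10 whose UMI counts were not whole. Reads shared with other genes may enter it, which was not tested.

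GAS5, SNHG5 and SNHG6 were highest in the last library. GAS5, named for its accumulation in growth-arrested cells, stood at 79.0, 131, 208, 284, 295, 270 and 321 CPM over all 7 times. Its fold was 3.59 (3.30 to 3.92) at 240 min and 4.06 (3.72 to 4.43) at 720 min, so the 720 min level exceeded that at 240 min by a factor of 1.13 (1.07 to 1.20). The 480 and 240 min levels of GAS5 did not differ beyond counting error (ratio 1.04, 0.986 to 1.10).

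SNHG6, host of SNORD87, stood at 558, 727, 839, 895, 909 and 1097 CPM, higher in each library than in the one before. The ratio of 720 to 0 min was 1.97 (1.90 to 2.04). The 600 and 240 min levels of SNHG6 did not differ beyond counting error (ratio 1.02, 0.984 to 1.05). In uncorrected UMI counts its 240 min level was 0.924 of that at 120 min. SNHG5, host of SNORD50A and SNORD50B, was at 272, 262, 330, 389, 420 and 470 CPM. SNHG5 alone had no higher level at 60 min, with a ratio of 0.964 (0.907 to 1.03), and reached 1.73-fold (1.64 to 1.82) at 720 min. From 240 to 720 min SNHG5 went up by a factor of 1.21 (1.15 to 1.27) and SNHG6 by 1.23 (1.19 to 1.26).

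**Figure D1:**
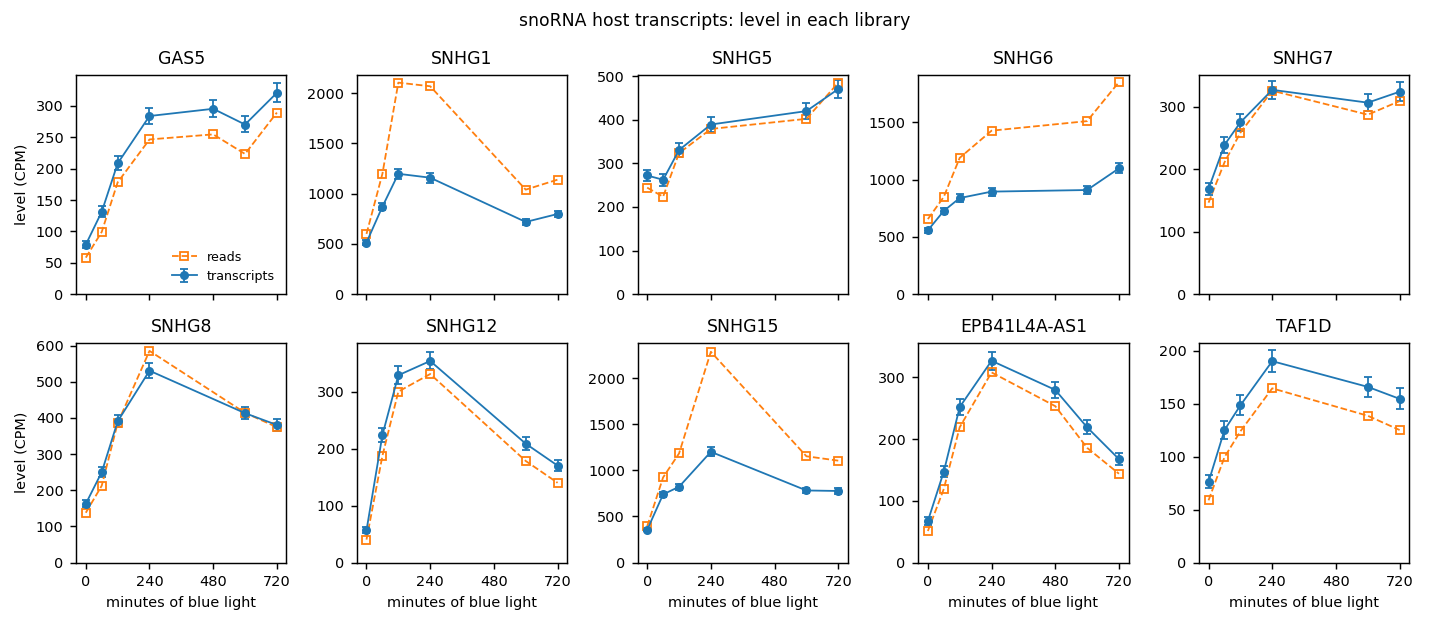
Level of each of the 10 snoRNA host transcripts (y axis, CPM, from 0) against minutes of blue light (x axis), 1 panel per gene and 1 point per library. Filled circles are transcript counts with 95% counting intervals and open squares are read counts. SNHG12 goes from 56.5 to 354 CPM by 240 min and back to 170 CPM, whereas GAS5 stays near its plateau and ends at 321 CPM.

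Speed and persistence were summarised by the midpoint time, at which a transcript reached the middle of its log2 rise from 0 min to its highest complete library, read off straight lines between libraries, and the share of that rise still present at 720 min. The midpoint fell inside the first sampled interval for SNHG12 (40 min), SNHG1 (48.1 min), SNHG15 (49.8 min), TAF1D (55.3 min) and SNHG7 (57.0 min). It was 60.8 min for EPB41L4A-AS1. Later midpoints belonged to SNHG8 (81.8 min), GAS5 (85.1 min), SNHG6 (90.8 min) and SNHG5 (178 min). In read counts the midpoint was 41.1 min for SNHG12, 54.5 min for SNHG1 and 58.7 min for TAF1D. For EPB41L4A-AS1, SNHG15 and SNHG7 it was 65.1, 66.3 and 70.3 min in reads, past the first interval. Midpoints before 60 min rest on a line between only 0 and 60 min, so the order among the earliest is not resolved.

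The share of the rise present at 720 min was 52.0% for SNHG1, 57.7% for EPB41L4A-AS1, 60.1% for SNHG12 and 64.2% for SNHG15. It was 71.9% for SNHG8, 77.4% for TAF1D and 98.6% for SNHG7, and 100% by definition for GAS5, SNHG5 and SNHG6. Because a late maximum moves the midpoint later, these measures are not independent. Each of the 10 was still above its 0 min level at 720 min, with ratios from 1.55 (SNHG1) to 4.06 (GAS5). As the 10 were picked for their rise, nothing is read from this.

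**Figure D2:**
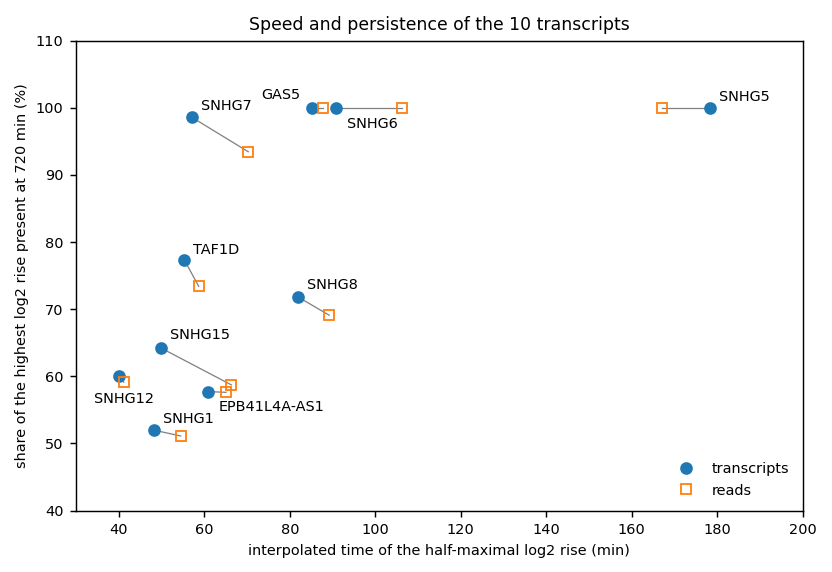
Interpolated midpoint of the log2 rise (x axis, min) against the share of the highest log2 rise present at 720 min (y axis, %), 1 circle per transcript from transcript counts, joined to a square from read counts. The circles of SNHG12, SNHG1 and SNHG15 lie lower left with 52.0% to 64.2% of the rise left, and those of GAS5, SNHG6 and SNHG5 lie at 100%.

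The median log2 ratio to 0 min over the 10 transcripts was 0.72, 1.22, 1.51, 1.13 and 1.08 in the libraries of 60, 120, 240, 600 and 720 min, while the median over all genes tested lay between -0.03 and 0.00. The range among the 10 was wide, from 0.51 (SNHG5) to 2.64 (SNHG12) at 240 min. At least 2-fold above 0 min were 3, 6, 7, 6 and 6 of the 10 in these libraries. Over all genes that reached 50 counts in one library of the pair, the shares were 2.19%, 5.63%, 10.5%, 6.35% and 4.94%. In the 480 min library both listed transcripts were 2-fold higher, against 9.63% of genes. Since the 10 were picked for their rise, nothing is read from this contrast. From 240 to 720 min, 3 of the 10 were at least 1.5-fold lower, SNHG12, EPB41L4A-AS1 and SNHG15, against a background of 22.0% of genes. The median ratio of 720 to 240 min was -0.39 over the 10 (log2) and -0.01 over all genes.

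**Figure D3:**
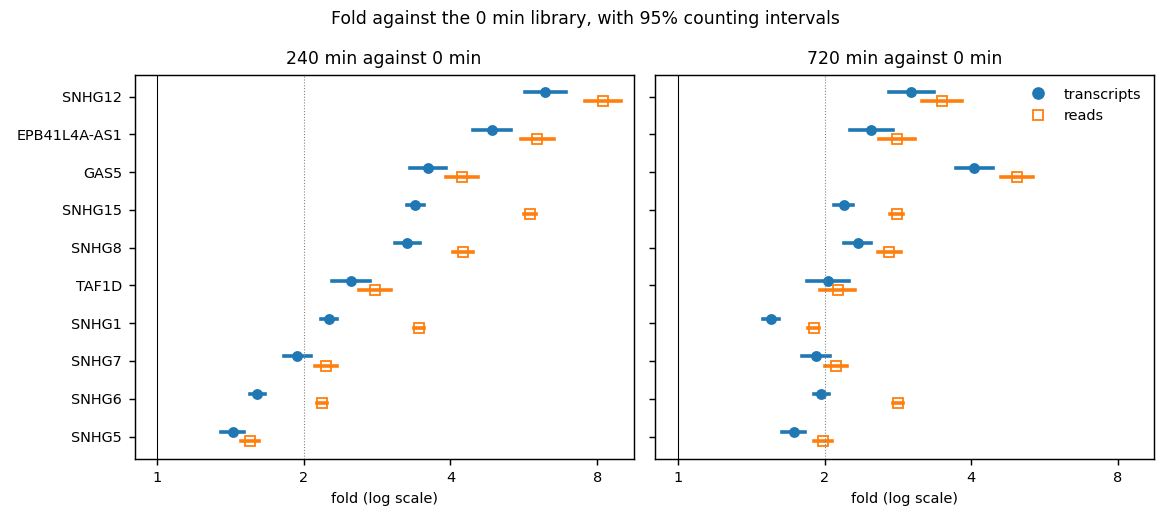
Fold of each transcript against the 0 min library (x axis, log scale) at 240 min (left) and 720 min (right), from transcript counts (circles) and read counts (squares). Lines are exact binomial 95% intervals. Those of reads take reads of the same UMI as independent and are too narrow as a measure of counting error. SNHG12 leads at 240 min with 6.26-fold and GAS5 at 720 min with 4.06-fold.

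Count type bore on the most abundant of these transcripts. Each library has 4096 possible UMIs, and at 240 min SNHG15 used 93.0% of them and SNHG1 92.3%, while SNHG6 reached 86.8% at 720 min. There the correction for UMI collisions is steep. Reads per corrected transcript moved with the level: for SNHG15 from 1.92 at 0 min to 3.43 at 240 min, for SNHG1 from 2.02 to 3.22 and for SNHG6 from 2.03 to 2.91 at 720 min, whereas for GAS5 they ran from 1.28 to 1.59. In reads the 240 min fold was 5.82 for SNHG15, 3.45 for SNHG1 and 2.18 for SNHG6, against 3.39, 2.25 and 1.60 in transcripts. The fall from 240 to 720 min was also deeper in reads: 0.483 for SNHG15 and 0.551 for SNHG1. By reads, 9 of 10 were at least 2-fold higher at 240 min and 5 of 10 at least 1.5-fold lower from 240 to 720 min. Shares over all genes were not computed in reads, so nothing is read from these counts. In uncorrected UMI counts the ratio of 720 to 240 min was 0.965 for SNHG15 and 0.984 for SNHG1, so the size of their late fall depends on the correction.

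Shape was fitted over all genes with edgeR in 2 ways. The trend is the slope over time, scaled to the log2 change over the whole 720 min. The bend is how far the fitted log2 level halfway, after 360 min, lies above the straight line joining both fitted ends, so an upward bend describes a level that is highest in the middle or levels off early. Bends were 2.06 ± 0.82 (SE) for SNHG12, 1.68 ± 0.34 for EPB41L4A-AS1, 1.36 ± 0.21 for SNHG8, 1.28 ± 0.32 for SNHG15, 0.98 ± 0.21 for TAF1D, 0.96 ± 0.26 for GAS5, 0.93 ± 0.39 for SNHG1, 0.62 ± 0.19 for SNHG7, 0.31 ± 0.17 for SNHG6 and 0.25 ± 0.16 for SNHG5. Trends ran from -0.13 ± 0.41 for SNHG1 to 1.42 ± 0.42 for GAS5, with 0.75 ± 0.18 for SNHG5 and 0.65 ± 0.20 for SNHG6. Because the 10 were chosen from these fits, the values are a description and no count of calls is read from them. In read counts the SNHG5 trend was 0.91, and in UMI counts the SNHG15 bend was 0.48. With the 240 min library left out, the fitted bends were 0.79 for GAS5, 0.61 for SNHG7, 1.15 for SNHG15, 1.59 for EPB41L4A-AS1 and 1.00 for TAF1D. With the 0 min library left out, they were 0.59 for GAS5, 0.35 for SNHG7 and 0.64 for TAF1D.

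The other noncoding snoRNA hosts are those left once the 10 had been taken for their rise, so their counts are set in part by that choice. Of 18 such hosts 9 could be tested, and 1 rose in trend (3.9% of all genes), 1 bent upward (17.5%), 1 bent downward (13.7%) and none fell in trend (2.96%). Their median log2 ratio at 240 min was 0.47, with 6 of 9 above 0, against 0.00 over all genes. C6orf48, now named SNHG32, stood at 141, 207, 247, 306, 349, 380 and 450 CPM over the 7 libraries, a rising trend of 1.32 ± 0.22 (SE; edgeR quasi-likelihood test, adjusted p = 0.0108). Every library was higher than the one before. Without the 60 min or the 600 min library its adjusted p was 0.0583 and 0.0610.

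ZNFX1-AS1, the older symbol of ZFAS1, bent upward by 1.12 ± 0.27 (edgeR adjusted p = 0.0159). Its levels were 285, 481, 783, 949, 1048 and 1158 CPM in the 6 complete libraries, each higher than the one before. Its bend did not pass in UMI counts (0.54, adjusted p = 0.108) or without the 0, 60 or 240 min library (adjusted p = 0.0813, 0.0729 and 0.0829). DANCR, host of SNORA26, bent downward by -0.68 ± 0.17 (edgeR adjusted p = 0.00987). It stood at 256 CPM unlit, 135 CPM after 240 min and 198 CPM after 720 min. The DANCR bend did not pass when the 0 min library (adjusted p = 0.0839) or the 240 min library (adjusted p = 0.0595) was left out. SNHG16 stayed between 456 and 525 CPM and SNHG3 between 64.7 and 101 CPM, and neither passed a test.

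**Figure D4:**
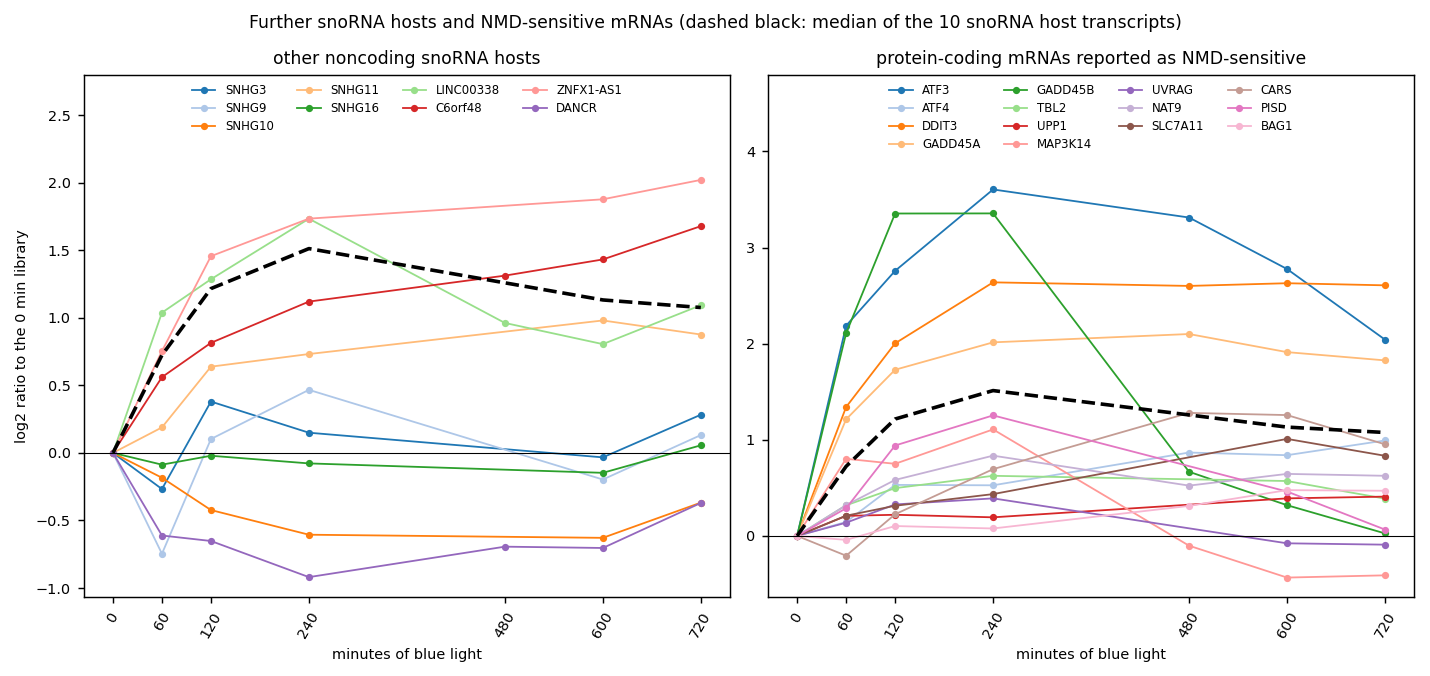
Log2 ratio to the 0 min library (y axis) against minutes of blue light (x axis) for the 9 tested other noncoding hosts (left; LINC00338 is an older symbol of SNHG20) and the 14 tested NMD-sensitive mRNAs (right), 1 line per gene, with the median of the 10 snoRNA host transcripts as a dashed line. ZNFX1-AS1 and C6orf48 end highest on the left and DANCR lies below 0 throughout, while all 14 mRNAs on the right are above 0 at 240 min.

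Among protein-coding snoRNA hosts other than ribosomal protein genes, downward bends outnumbered upward ones. Of 28 tested, 3 bent upward (17.5% of all genes), 7 bent downward (13.7%) and 1 rose in trend (3.9%), with a median log2 ratio of -0.16 at 240 min. RABGGTB, an enzyme subunit that attaches lipids to Rab proteins, bent upward by 1.46 ± 0.26 (edgeR adjusted p = 0.00305). Its levels were 119, 199, 293, 374, 208 and 186 CPM. CNOT1, the scaffold of the CCR4-NOT deadenylase (0.48 ± 0.13, edgeR adjusted p = 0.0178), and WDR43, a ribosome biogenesis factor (0.60 ± 0.20, adjusted p = 0.0387), bent upward by less. HSPA9, the mitochondrial chaperone mortalin, rose in trend by 0.97 ± 0.14 (edgeR adjusted p = 0.00564). The 4 downward bends with the smallest p were those of HSPA8 (-0.82), RCC1 (-0.91), RNF149 (-0.96) and CWF19L1 (-0.93). HSPA8, the constitutive chaperone HSC70, went from 1601 CPM unlit to 860 CPM after 240 min. Of the 8 calls named here, 6 were lost in a fit without the 240 min library, RABGGTB among them (adjusted p = 0.0717).

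The 5′ TOP mRNAs outside the ribosomal protein genes showed no upward call. Of 16 tested, 4 bent downward (13.7% of all genes) and 12 passed neither test, with a median log2 ratio of -0.25 at 240 min. EEF1G (-0.66 ± 0.13, edgeR adjusted p = 0.00357) and EEF1D (-0.64 ± 0.13, adjusted p = 0.00441), subunits of elongation factor 1, passed in every alternative fit. The bends of EEF1B2 (-0.34) and GNB2L1 (-0.37), now named RACK1, were lost in 9 and 7 of 16 alternative fits. For both these included read counts, DESeq2 and fits that left out a library. EEF1B2 and GNB2L1 also belong to the protein-coding hosts.

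The tested protein-coding mRNAs reported as NMD-sensitive were higher than at 0 min in the 240 min library. Of 14 tested, 14 had a log2 ratio above 0 there (6744 of 13566 over all genes), with a median of 0.76. Upward bends numbered 6 (17.5% of all genes), rising trends 3 (3.9%), and no member fell or bent downward. ATF3, a stress transcription factor, bent upward by 2.53 ± 0.59 (edgeR adjusted p = 0.0317) and DDIT3, encoding CHOP, by 1.40 ± 0.37 (adjusted p = 0.0260). PISD, phosphatidylserine decarboxylase, bent by 1.36 ± 0.24 (edgeR adjusted p = 0.00212). PISD stood at 19.4 CPM unlit, 46.7 CPM after 240 min and 20.3 CPM after 720 min. CARS, cysteinyl-tRNA synthetase, rose in trend by 1.39 ± 0.28 (edgeR adjusted p = 0.0214) and bent upward by 0.61 ± 0.17 (adjusted p = 0.01996). ATF4 and the cystine transporter SLC7A11 each rose in trend by 0.89. Several of these genes, ATF4 and DDIT3 among them, also belong to the ATF4 pathway of the stress response. All 7 of these calls were lost in at least 1 fit without a library (adjusted p 0.0535 to 0.288).

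Of 18 NMD factors tested, 3 bent upward (17.5% of all genes), 3 bent downward (13.7%) and 1 rose in trend (3.9%), counts near those shares. UPF2, UPF3B and PNRC2 bent upward by 0.78 ± 0.22, 0.50 ± 0.17 and 0.64 ± 0.19, and the helicase UPF1 and the exon junction proteins RBM8A and MAGOH bent downward by -0.55 ± 0.19, -0.52 ± 0.17 and -1.12 ± 0.26 (edgeR adjusted p between 0.0100 and 0.0401). MAGOHB rose in trend by 0.96 ± 0.20 (edgeR adjusted p = 0.0257). The median log2 ratio at 240 min was 0.23. All 7 calls were lost in at least 1 fit without a library, 6 of them when the 0 min library was left out and 5 when the 240 min library was.

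The proteins that bind and assemble snoRNAs gave 3 downward bends (13.7% of all genes), 1 upward bend (17.5%) and 1 rising trend (3.9%). Of 17 snoRNP proteins and assembly factors, FBL (-0.60 ± 0.15), NHP2 (-0.79 ± 0.15) and RUVBL2 (-0.59 ± 0.20) bent downward, the assembly factor ZNHIT6 bent upward (0.82 ± 0.20) and GAR1 rose in trend (1.01 ± 0.17, edgeR adjusted p = 0.0102). FBL, the methyltransferase fibrillarin, went from 254 CPM unlit to 164 CPM after 240 min. NHP2, a box H/ACA core protein, went from 299 to 175 CPM and passed in every alternative fit, and the other 4 calls were lost in at least 1 fit without a library (adjusted p 0.0601 to 0.436). The median log2 ratio at 240 min was -0.08.

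Among 11 SL1 and RNA polymerase I genes, the partners of TAF1D, 3 bent upward (17.5% of all genes) and none bent downward (13.7%) or had a trend past the threshold. TAF1A, a further SL1 subunit, bent by 1.29 ± 0.28 (edgeR adjusted p = 0.00515), with 12.8 CPM unlit, 42.7 CPM after 240 min and 25.4 CPM after 720 min. RRN3, the factor that ties polymerase I to SL1, bent by 0.76 ± 0.17 (edgeR adjusted p = 0.00523) and POLR1B by 0.74 ± 0.18 (adjusted p = 0.00836). All 3 calls were lost when the 0 min library was left out and when the 240 min library was (adjusted p 0.0590 to 0.190). The median log2 ratio at 240 min was 0.37, below the 1.32 of TAF1D.

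Of 18 long noncoding RNAs tested that host no snoRNA, 5 rose (3.9% of all genes) and 1 fell (2.96%) in trend, 2 bent upward (17.5%) and 1 bent downward (13.7%), with a median log2 ratio at 240 min of 0.03. PVT1 bent upward by 1.94 ± 0.35 (edgeR adjusted p = 0.00248), from 6.36 CPM unlit to 37.1 CPM after 240 min, and HCG18 by 0.73 ± 0.18 (adjusted p = 0.00954). OIP5-AS1 bent downward by -0.82 ± 0.25 (edgeR adjusted p = 0.0241). LINC00467, CRNDE, HCG18 and MIR22HG led the rising trends, and HOTAIR fell by 1.14 ± 0.25 (edgeR adjusted p = 0.0287). The 8 calls named here were each lost in at least 1 fit without a library (adjusted p 0.0514 to 0.254).

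The snoRNAs inside the hosts were barely captured. Of 37 snoRNAs carried by the 10 genes, 15 were listed, and together they held 87, 59, 66, 61, 82 and 65 transcripts in the 6 complete libraries, against at least 480 transcripts per library for each host. Mature snoRNAs have no poly(A) tail, which the primer of this method needs, so these counts do not measure their amount. SNORA61, from SNHG12, had 41, 16, 19, 20, 39 and 32 transcripts in these libraries, with a bend of -0.94 ± 0.47 that did not pass (edgeR adjusted p = 0.139). SNORA25, from TAF1D, had 14 to 28 transcripts and did not pass either. The other listed snoRNAs had too few transcripts to be tested.

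RefSeq (GRCh38.p14, used here for names and order only) gave 28 genes that neighbour or overlap the hosts, of which 22 are listed and 15 could be tested. Upward bends numbered 1 (17.5% of all genes), downward bends 4 (13.7%) and rising trends 1 (3.9%), with a median bend of -0.07. The upward bend was that of KIAA1731, now CEP295, which overlaps TAF1D: 49.0, 87.6, 147, 142, 91.7, 66.6 and 45.4 CPM over the 7 libraries (1.47 ± 0.32, edgeR adjusted p = 0.0100). Unlike TAF1D, it was back at its 0 min level by 720 min. The assignment of reads from the overlap was not given in the sources used here, and the KIAA1731 bend did not pass without the 240 min library (adjusted p = 0.111).

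SLC3A2, beside SNHG1 and encoding the heavy chain of amino acid transporters, rose in trend by 0.88 ± 0.15 (edgeR adjusted p = 0.0154). It stood at 387 CPM unlit, 547 CPM after 240 min, 626 CPM after 600 min and 770 CPM after 720 min. SNHG1 stood at 1159, 719 and 798 CPM after 240, 600 and 720 min. The SLC3A2 trend did not pass without the 60, 600 or 720 min library (adjusted p 0.0769, 0.0713 and 0.115). RCC1 (-0.91) and RAB42 (-1.75), on either side of SNHG12, both bent downward and were lowest at 240 min, where SNHG12 was highest. RAB42 was barely expressed, at 2.47 CPM unlit, 0.882 CPM after 240 min and 2.38 CPM after 720 min. AGPAT2 (-1.24), beside SNHG7, and C11orf75 (-0.68), now SMCO4 and beside TAF1D, bent downward too. The AGPAT2 bend was kept in every alternative fit, whereas those of RCC1, RAB42 and C11orf75 were each lost without at least 1 library and on log time. The RAB42 bend also did not pass with DESeq2 (adjusted p = 0.141).

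Likeness of course was measured as the root mean square difference between a gene's centred log2 levels and the mean of the 10 hosts over the 6 complete libraries. TAF1D (0.09), SNHG8 (0.14) and SNHG15 (0.15) lay closest to the mean of the other 9, and SNHG12 (0.53), SNHG5 (0.38) and GAS5 (0.36) farthest. The 8 nearest of 9983 other genes with a mean of at least 10 CPM were CCDC174 (0.10), TMEM128 (0.10), LOC374443 (0.11), MEX3C (0.11), NT5C3 (0.11), E2F5 (0.11), TAPT1-AS1 (0.12) and SIAH1 (0.12). CCDC174 stood at 20.96, 29.2, 40.8, 55.5, 41.8 and 43.5 CPM. None of these 8 is on the snoRNA host lists. Nearer to the mean than SNHG12 was to that of the other 9 were 4808 of the 9983 genes. The difference keeps the size of a change, and a gene that stayed flat would also be nearer than SNHG12. The 4808 are therefore no count of genes with a similar course.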

How the data were processed

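RNA of 7 cultures, 1 per illumination time, was counted by an adaptation of CEL-Seq2. The authors deposited expected counts, not all of them whole, of reads, UMIs and transcripts per gene, the last equal to UMI counts corrected for collisions among 4096 UMIs. BWA and hg19 are named per the submitters' processing notes. Versions, annotation, counting program and the handling of multiply matching reads: not given in the sources used here. Antisense reads numbered 0 per the mapping summaries. The column of primer 4 was used, and 95 other barcode columns per table were not. Spike-in reads, at most 0.0124% of gene reads, were left out.

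Transcript counts were rounded to whole numbers, and genes with at least 10 counts in 3 libraries were fitted with edgeR 4.0.16 in R 4.3.3 (TMM, robust quasi-likelihood F test, Benjamini-Hochberg over all genes, threshold 0.05). Genes named after the last row of the short 480 min table were fitted on 6 libraries and the rest on 7, a change from the design made once the files were seen. Residual degrees of freedom were 5 or 4 (trend) and 4 or 3 (bend). Log2 ratios used a prior count of 2. Folds used none. Their exact binomial 95% intervals (scipy 1.17.1) cover counting error only, and understate it by taking corrected transcripts, or reads, as independent counts. The fit was tested on simulated data.

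The members and lists were chosen with earlier results of these data known. The text names all 10 members, up to 4 called genes with the smallest p-values per list, test and direction, the called neighbours and the 8 genes nearest in course. SNHG3 and SNHG16 were named after their values were seen. Alternatives were read or UMI counts, RLE or total-count scaling, other filters, DESeq2 1.42.0, log or rank time, a smaller prior count of 0.5 and leaving out each library.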

Additional observations from a re-analysis of the deposited data

How the results depend on the processing

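No paired analysis was possible because each time has 1 library and the labels carry no replicate numbers. Over all genes 930 trends passed (DESeq2 1572; without 1 library 135 to 1481) and 4238 bends (without 1 library 1320 to 4307). Among the other noncoding hosts, the rising trends numbered 1, and 2 with DESeq2, log time or rank time (without 1 library 0 to 2). Their upward bends numbered 1, and 0 in UMI counts, 2 on log or rank time (without 1 library 0 to 3). Their downward bends numbered 1, and 2 in read counts (without 1 library 0 to 1). The median log2 ratio of the 10 transcripts to 0 min moved with the count type and the base: at 60 min from 0.72 to 0.60 in UMI counts, at 120 min from 1.22 to 0.83 in UMI counts, 1.54 in read counts and 0.76 against the mean of 0 and 60 min. In the same order it moved at 240 min from 1.51 to 0.96, 1.93 and 1.10, at 600 min from 1.13 to 0.83, 1.39 and 0.71, and at 720 min from 1.08 to 0.85, 1.47 and 0.72. The median ratio of 720 to 240 min was -0.39, and -0.038 in UMI counts, -0.52 in read counts and -0.48 by total counts. UMI counts lack the collision correction, which matters most where few of the 4096 UMIs are unused. Why the other values moved was not tested. Of 50 named calls on other genes, 5 held in every alternative and 44 were lost in at least 1 fit without a library, most often without the 240 min library (29) or the 0 min library (21). Such fits have 1 residual degree of freedom fewer. The CARS bend turned to -0.19 on the log time scale, and the cause was not tested. The UMI pool limits the precision of SNHG1, SNHG6 and SNHG15.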
